A study of Mus musculus with 14 samples.

Results

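The maturation of CD8+ T cells in ENK KO mice was followed by comparing sorted CD8+ lymphocytes of the spleen with sorted CD4+CD8+ lymphocytes of the thymus, and the question was which of the changes between these stages are made in the mutant. The comparison rests on 6 of the 14 microarrays of the series, chosen by their labels: thymus ENK KO samples 1 and 29, and spleen ENK KO samples 3, 6, 25 and 31. Another ENK KO spleen sample, 28, was left out because it carries CD4 T cell transcripts: its log2 value was 12.20 for Cd4 and 6.78 for Cd8a. The 7 WT arrays, 3 of thymus CD4+CD8+ and 4 of spleen CD8+ cells, served as reference and share no array with the mutant comparison.

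All animals were of strain C57BL/6. Within ENK KO, age and sex go together: thymus sample 1 and spleen samples 3 and 6 came from females of 2 months, thymus sample 29 and spleen sample 31 from males of 7 months, and spleen sample 25 from a male of 9 months. The WT animals were all 7 months old. The labels do not spell out ENK. The title of the series names Engrailed-2, a homeobox transcription factor, and the sources used here do not give whether the allele acts in all cells or in 1 lineage.

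Thymocytes that carry both CD4 and CD8 are rearranging their T cell receptor alpha genes with the Rag recombinase and await selection. Those selected on MHC class I silence Cd4 under the transcription factor Runx3. They gain the receptors with which they leave the thymus, recirculate through lymphoid organs and live on interleukin 7. A part of the splenic CD8+ cells in an unimmunised mouse already carries a memory-like programme with interleukin 2 and 15 receptors, killer lectin-like receptors and cytotoxic proteins.

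The values are log2 expression values per gene made with RMA, in which 1 unit is a 2-fold difference. A difference below is spleen minus thymus with its standard error (SE) from limma, and a gene counts as changed at a Benjamini-Hochberg adjusted p under 0.05 over the 13610 genes tested. The labels do not state that each sample is a separate animal, so these p-values measure the spread between samples, which may be technical.

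The sorted populations matched their labels in the 6 mutant arrays. Cd4 read 13.02 and 13.02 in the thymus and 6.75, 6.81, 6.61 and 6.70 in spleen samples 3, 6, 25 and 31. Cd8a read 13.23 and 13.02 in the thymus and 12.36 to 12.53 in the spleen, and Cd8b1 13.69 and 13.57 against 13.20 to 13.39. The T cell receptor subunit gene Cd3e stood at 13.27 and 13.27 in the thymus and between 13.06 and 13.20 in the spleen. En2, the gene named in the series title, read 6.01 and 6.14 in the thymus and 6.54, 6.31, 6.12 and 7.87 in the spleen, with sample 31 highest. Its difference of 0.64 did not pass the test (SE 0.38, adjusted p = 0.155 in limma). Where its probes lie relative to any deleted stretch was not given in the sources used here, so En2 checks no label.

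The 14 arrays had medians between 7.14 and 7.25. The WT spleen array 22 goes against its label: it is labelled female, yet read 5.90 for Xist and 10.17 for the Y-linked gene Eif2s3y. It is no member of the mutant groups, but it enters the WT comparison and the shared estimate of the spread. Without it, 3768 genes were higher and 5054 lower in ENK KO at the adjusted p, against 3792 and 5073 with it. The tissues may have been normalized apart. Between 19.1% and 25.8% of the genes tested had exactly equal values in a pair of thymus arrays and between 3.23% and 6.03% in a pair of spleen arrays, but 0 genes did in any of the 40 pairs of a thymus with a spleen array. An offset that the arrays of a tissue share cannot be told apart from a difference between the cell populations, and it would enter the mutant and the WT comparison alike. In the 6327 genes that stayed at or near background (at most 1 of 13 arrays above the filter level of 6.76), 50.4% passed the adjusted p, but only 73 (1.15%) also differed 2-fold. The account below therefore leads with genes that passed the adjusted p and differed at least 2-fold.

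In ENK KO mice, 1655 genes differed at least 2-fold between the stages: 869 were higher in splenic CD8+ cells (6.39% of the genes tested) and 786 lower (5.78%). At least 4-fold differences were found in 237 higher and 206 lower genes, and at least 16-fold in 38 and 21. In 1653 of the 1655 genes the 4 spleen arrays lay on 1 side of both thymus arrays, as they did in 74.7% of all genes tested. At the adjusted p alone, 3792 genes (27.9%) were higher and 5073 (37.3%) lower. In 427 of the 1655 genes the lower group was under the filter level, where RMA values flatten, so their folds are approximate. In sorted bulk populations, fewer cells of a type and less RNA per cell cannot be told apart.

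The sequences shown first are of the microRNA family whose genes fell furthest, with 1 other that fell and the 1 that rose. The miR-181 family tunes the strength of T cell receptor signals in immature thymocytes, and 4 of the 9 microRNA genes that were at least 2-fold lower belong to it (Mir181a-1, Mir181b-1, Mir181a-2 and Mir181b-2). The capitals mark the seed, bases 2 to 8, which pairs with target transcripts. The 5p arms of this family share it, while the arms of miR-128 and miR-342 shown have others. Sequences are from RefSeq on assembly GRCm38.p6. Mir181a-1 and Mir181b-1 lie next to each other on the plus strand of chromosome 1, with the mature arms at chr1:137966468-137966490 and chr1:137966650-137966673. The arms of Mir128-2 and Mir342 lie at chr9:112118644-112118664 (minus strand) and chr12:108658680-108658702 (plus strand).
miR-181a-5p: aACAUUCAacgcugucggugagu
miR-181b-5p: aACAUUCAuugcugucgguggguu
miR-128-3p: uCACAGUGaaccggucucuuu
miR-342-3p: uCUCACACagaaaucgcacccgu

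Mir181b-1 read 11.95 and 12.48 in the thymus and 5.70, 5.47, 5.20 and 5.35 in the spleen, a difference of -6.78 (SE 0.21). Mir181a-1 averaged 9.51 in the thymus, with 9.02 in sample 1, and read 3.86 to 4.01 in the spleen, -5.59 (SE 0.29). The adjusted p was 8.64e-11 for Mir181b-1 and 8.02e-09 for Mir181a-1 in limma. Mir128-2, whose host gene is Arpp21, read 8.89 and 9.61 against 6.97 to 7.20. Mir342 alone of the 124 microRNA genes tested was at least 2-fold higher, from 6.98 and 7.20 to 8.94, 9.45, 9.13 and 8.13, with sample 31 closest to the thymus. These probe sets detect precursor or host transcripts, not the mature RNA whose sequence is shown.

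The genes of the recombinase fell in every spleen array. Rag1, a subunit of the recombinase, read 13.16 and 12.89 in the thymus and 6.36, 6.30, 6.29 and 6.00 in the spleen, 110-fold lower (difference -6.79, SE 0.10, adjusted p = 2.98e-13 in limma). Rag2, its partner, read 11.10 and 10.96 against 4.22 to 4.46. Dntt, the polymerase that adds untemplated bases at the joints, fell from 12.29 and 12.24 to between 6.17 and 6.50. The end-joining genes Lig4 (-3.63) and Xrcc6 (-2.69) were lower too, and of the 14 recombination and end-joining genes tested 8 fell at least 2-fold and 1 was at least 2-fold higher.

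Of the 19 tested genes listed as characteristic of CD4+CD8+ thymocytes, 17 were at least 2-fold lower and none was 2-fold higher. Gpr83 was higher by 0.84. Their median difference was -3.59 beside -0.06 over all genes tested. The list was chosen with earlier results of these data known, so its count and median describe the members and test nothing. Arpp21, whose gene is abundantly transcribed at this stage, went from 12.58 and 12.58 to between 5.95 and 6.11 (difference -6.57, SE 0.07). Aqp11, an aquaporin, and Dhrs3, a retinal reductase, fell by 5.75 and 5.36 on the log2 scale. Cd24a, the heat-stable antigen lost as thymocytes mature, read 12.27 and 12.76 in the thymus and 7.66, 7.45, 6.77 and 7.23 in the spleen. Slc7a11, the cystine transporter, read 11.75 and 12.16 against 5.25 to 5.53, and is taken up again below because WT animals differed there. In each of these genes the highest spleen array was far under the lower thymus array.

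**Figure D1:**
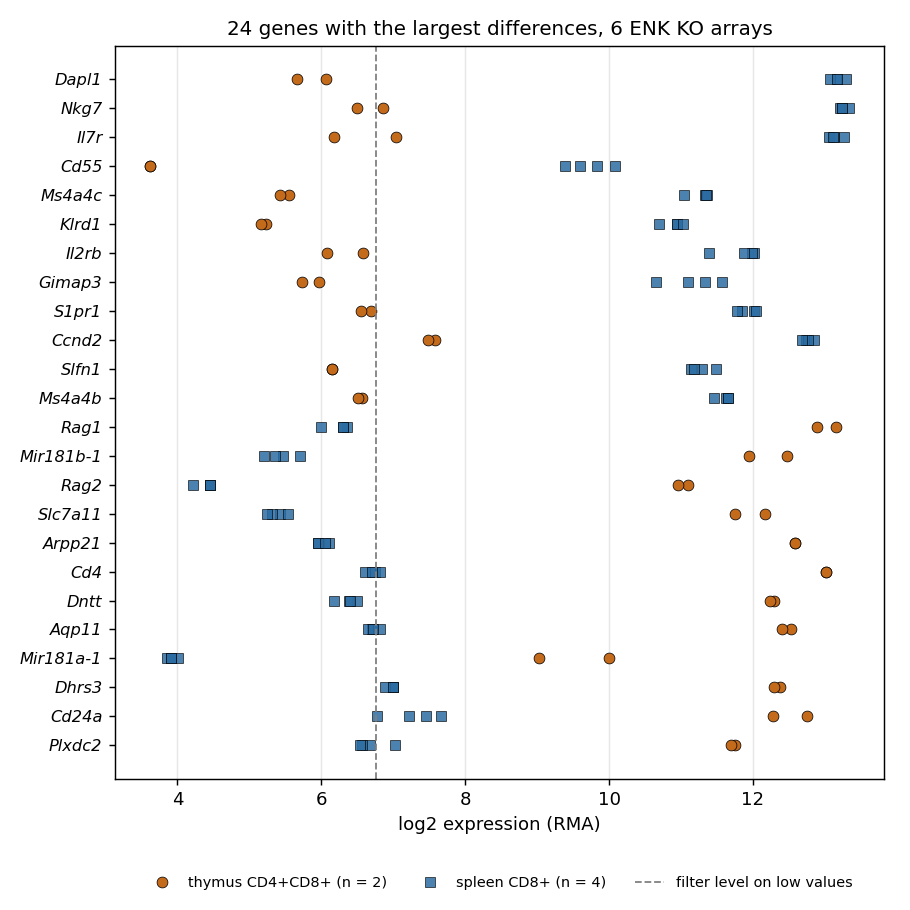
Log2 RMA value (horizontal axis) of the 24 genes with the largest differences in ENK KO, 12 in each direction; each point is 1 array, with 2 thymus CD4+CD8+ and 4 spleen CD8+ samples per gene. Genes were chosen for size and for spleen arrays all on 1 side of both thymus arrays, so the plot shows the levels and their spread, as for Dapl1 (13.06 to 13.30 against 6.07 and 5.67) and Rag1 (6.00 to 6.36 against 13.16 and 12.89).

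Regulators of T cell fate moved in both directions. Runx3, which silences Cd4 in CD8 lineage cells, read 8.07 and 8.34 in the thymus and 11.90, 11.87, 12.19 and 11.90 in the spleen (difference 3.76, SE 0.12, adjusted p = 1.28e-10 in limma). Myb, needed for thymocyte survival, read 13.15 and 13.15 against 9.62 to 9.77. Satb1 and Bcl11b, chromatin organiser and T lineage factor, were lower by smaller amounts (-1.15 and -1.20). Runx3 was the only one of the 18 regulators tested to be at least 2-fold higher, while 6 were at least 2-fold lower. Among E proteins and their Id inhibitors, Tcf12 (-1.33) and Tcf4 (-2.32) were lower and Id2 (1.31) higher.

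In the Notch pathway, whose receptor drives early thymocytes, the glycosyltransferase Lfng went from 7.08 and 6.99 to between 11.76 and 12.07, a difference of 4.94 (SE 0.10). Dtx1, a Notch target and regulator, was higher by 2.61, and the DNA-binding partner Rbpj lower (-1.06). Of the 14 pathway genes tested 4 were at least 2-fold higher and 2 at least 2-fold lower. Of 27 genes of T cell receptor signalling, 3 were at least 2-fold higher, among them Nfatc2 (1.57) and Malt1 (1.34), and none was 2-fold lower. Over all genes tested these shares were 6.39% and 5.78%. At the adjusted p alone 11 of the 27 were higher and 8 lower, beside 27.9% and 37.3% of all genes. With so few genes, these counts do not set the group apart from all genes.

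Genes for leaving the thymus were higher in the mutant spleen. S1pr1, the sphingosine phosphate receptor that lets thymocytes out into the blood, read 6.68 and 6.55 in the thymus and 12.02, 11.84, 11.78 and 12.04 in the spleen, 39.4-fold higher (difference 5.30, SE 0.10, adjusted p = 1.5e-12 in limma). Klf2, the transcription factor that turns on S1pr1, rose from 7.85 and 7.86 to between 10.29 and 10.90, and Foxo1, which acts above Klf2, by 2.05. Ccr7, the receptor for lymph node homing, read 8.71 and 8.27 against 12.46 to 12.68. Of the 14 egress and homing genes tested 8 were at least 2-fold higher and none was lower at the adjusted p. Chemokine receptors moved both ways: Ccr9, which holds thymocytes to thymic and gut ligands, read 13.36 and 13.48 in the thymus and 11.81, 10.99, 11.16 and 11.07 in the spleen, and Ccr4 fell by 3.08, while Cxcr6 (3.48) and Cxcr3 (3.17) rose with Ccr7.

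Of the 23 cytokine receptors tested 12 were higher, 9 of them at least 2-fold, and 4 lower, 3 of them at least 2-fold. Il7r, the interleukin 7 receptor alpha chain, read 7.04 and 6.18 in the thymus and 13.05, 13.26, 13.13 and 13.12 in the spleen (difference 6.53, SE 0.17, adjusted p = 2.07e-11 in limma). Il2rb, the beta chain shared by the interleukin 2 and 15 receptors, read 6.57 and 6.08 against 11.39, 12.02, 11.98 and 11.88, with sample 3 lowest. Il6ra was higher by 4.17 and Il18r1 by 4.75, while Il2ra, the interleukin 2 receptor alpha chain, was lower (-2.13). Dapl1, a marker of naive CD8 T cells, had the largest rise of the named genes, from 6.07 and 5.67 to 13.17, 13.06, 13.30 and 13.17 (159-fold). Of the 16 naive T cell genes tested 11 were at least 2-fold higher, with a median difference of 2.39.

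Survival genes moved in both directions. Bcl2, the protein that keeps mature T cells alive, read 9.09 and 9.42 in the thymus and 11.56 to 11.77 in the spleen (difference 2.40, SE 0.14). Bcl2l1, whose product Bcl-xL protects CD4+CD8+ thymocytes, went the other way, from 10.87 and 10.87 to between 8.02 and 8.10 (-2.83, SE 0.05), and the pro-apoptotic Bmf fell by 1.61. No other of the 14 family members tested differed 2-fold. The Gimap GTPases, which support the survival of peripheral T cells, rose in 6 of 8 genes at least 2-fold, led by Gimap3 from 5.73 and 5.97 to 10.65, 11.09, 11.57 and 11.34.

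Of the 19 effector and memory regulators tested 12 were higher, 7 of them at least 2-fold, and 3 lower, 1 of them at least 2-fold: Fas, a death receptor (-1.88). Among the cytotoxic effector genes, Nkg7, a granule protein, read 6.86 and 6.50 in the thymus and 13.21, 13.34, 13.24 and 13.23 in the spleen (95.4-fold, adjusted p = 2.62e-13 in limma). Eomes, a T-box factor of memory-like CD8 T cells, read 5.62 and 5.53 against 10.27, 10.64, 10.70 and 10.53. Tbx21, its relative T-bet, read 6.50 and 6.49 against 8.87, 9.87, 9.78 and 9.94, with sample 3 lowest. Ccl5, a chemokine of effector and memory cells, was lowest in that sample too, 7.61 and 7.44 against 11.42, 12.74, 12.81 and 13.13. Of the 23 cytotoxic effector genes tested 16 were at least 2-fold higher, and none was 2-fold lower. Without sample 31 these counts were 14 and 1.

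The killer lectin-like receptors tested, 7 of the 14 on the array, were all at least 2-fold higher. The other 7 did not pass the filter, so this count is over the measurable members only. The members tested averaged 5.13 to 5.17 in the mutant thymus, under the filter level. With thymus values that low, a member could pass the filter only through high spleen arrays. The count therefore cannot test whether the family as a whole rose, because the filter itself favoured members that did. Klrd1, the CD94 chain, read 5.23 and 5.17 against 10.70, 10.95, 10.95 and 11.02. Klrc1, the inhibitory NKG2A chain, read 4.26 and 4.26 against 6.75, 8.28, 7.97 and 9.20, so the spleen samples spread over more than 2 log2 units. Sample 3 was lowest and sample 31 highest for Klrc1, Klrk1 and Klrc3. Close relatives in this family, and the pair Ms4a4b and Ms4a4c, can share probes, so their values may not be independent.

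Markers of other spleen cells were read beside these groups. The mean of the 7 NK cell markers was 6.05 and 6.15 in the thymus and 6.82 to 7.18 in the spleen. Without Eomes, which CD8+ T cells also express, the mean of the other 6 was 6.13 to 6.25 in the thymus and 6.17 to 6.62 in the spleen. Of these, Ncr1 (4.91 to 5.20), Klrb1c (4.83 to 5.15) and Klra8 (5.28 to 5.94) were under the filter level in the mutant spleen arrays. Klra8 (4.91 to 4.92 in the thymus) and Tyrobp (6.97 to 7.05 against 7.19 to 7.85) were higher in every spleen array. Fcer1g (6.63 to 6.70 against 6.58 to 7.54) and Nfil3 (7.56 to 8.44 against 7.67 to 8.96) overlapped. The 9 B cell markers averaged 6.57 to 6.64 in the thymus and 6.78 to 7.64 in the spleen, with sample 6 highest and sample 25 lowest, and 2 of the 8 tested were at least 2-fold higher. The 8 markers of MHC class II antigen presenting cells averaged 6.68 to 6.87 against 7.29 to 7.97, and the 11 myeloid markers 6.25 to 6.32 against 6.38 to 6.96. The part of these cells in the other differences was not tested.

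Of the 18 integrin and adhesion genes tested 11 were higher, 8 of them at least 2-fold, and 3 were lower by less: Itgb1 (-0.76), Icam2 (-0.37) and Itgal (-0.24), which are integrin chains and an integrin ligand. Cd226, an activating adhesion receptor, rose by 3.41 and Itgb7, an integrin chain for mucosal homing, by 2.93. Itgae, the CD103 chain that pairs with it, read 6.37 and 6.23 in the thymus and averaged 9.70 in the spleen, with sample 31 lowest at 9.19. Among sialyltransferases and O-glycan enzymes, which change the surface sugars of T cells as they mature, St3gal1 (1.59) and St3gal6 (1.71) were higher and C1galt1 lower (-1.48), with 7 of 15 at least 2-fold higher and 1 at least 2-fold lower. Anxa2 fell by 3.43 and Anxa6 rose by 2.04. Of the 10 inhibitory receptors and ectonucleotidases tested 5 were at least 2-fold higher, led by the adenosine-producing enzyme Nt5e (3.09) and the inhibitory receptor Btla (2.41).

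**Figure D2:**
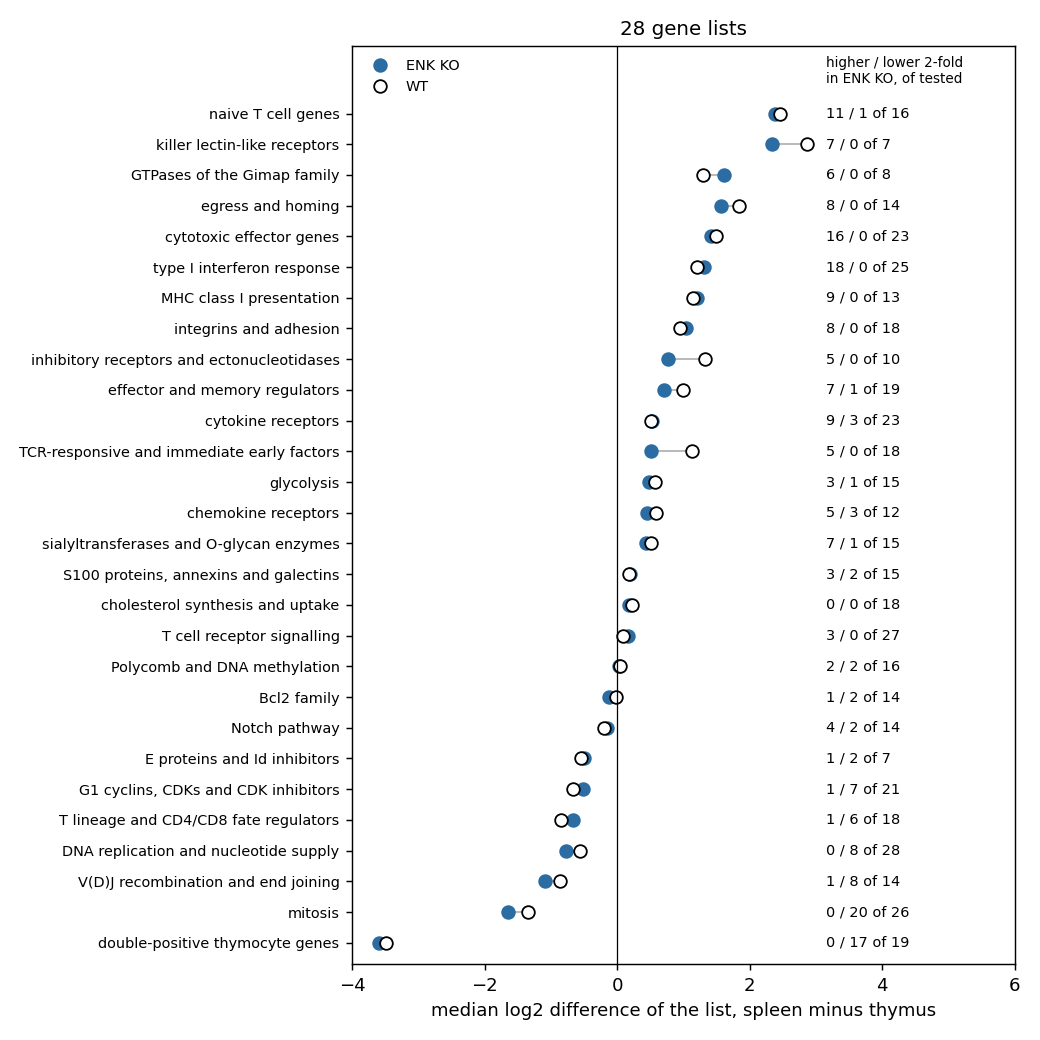
Median log2 difference, spleen minus thymus, of the members tested of each gene list in ENK KO (filled) and WT (open), with the number at least 2-fold higher and lower in ENK KO of the number tested at the right. CD4+CD8+ thymocyte genes (here "double-positive") and mitosis are lowest, naive T cell genes and killer lectin-like receptors highest. For the killer lectin-like receptors the filter favoured members high in the spleen. The ENK KO and WT medians lie furthest apart for TCR-responsive factors (0.51 and 1.13), inhibitory receptors (0.77 and 1.32) and killer lectin-like receptors (2.34 and 2.87). A gap between medians is not the median difference per gene, which was -0.30, 0.01 and -0.53 for these lists in that order. No gene of these lists was called for the genotype difference.

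Cell division genes fell. Of the 26 mitosis genes tested 25 were lower, 20 of them at least 2-fold, and none was higher at the adjusted p. Kif11, the motor that separates the spindle poles, read 9.79 and 9.97 in the thymus and 6.09, 6.36, 6.09 and 6.08 in the spleen (difference -3.72, SE 0.16, adjusted p = 1.22e-09 in limma). Mki67, the proliferation antigen, read 10.20 and 10.76 against 7.12, 7.60, 7.15 and 6.77, with sample 6 highest. Genes of DNA replication and nucleotide supply fell by less, with 8 of 28 at least 2-fold lower and a median of -0.77; Rrm2, a ribonucleotide reductase subunit, led in size with -3.28. The D-type cyclins parted: Ccnd2 rose from 7.58 and 7.49 to between 12.68 and 12.85 (37.3-fold), while Ccnd3 fell by 1.87 and the S phase factor E2f2 by 2.69.

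The promoters of the mitosis genes are shown because most of them carry a letter sequence that those of the replication genes rarely hold. Whether it bears on the size of the fall was not tested. TTTGAA, the core of the cell cycle genes homology region, was searched on both strands from 250 bases before to 50 bases after the start site, in RefSeq promoters of GRCm38.p6. It occurred in 17 of the 22 mitosis genes with a promoter entry (77.3%), in 2 of 24 replication genes (8.3%) and in 1535 of the 10801 tested genes with an entry (14.2%). CCAAT, which can share at most 1 end base with it, occurred in 81.8% of mitosis and 70.8% of replication promoters and in 41.6% overall. These are matches of letters, not sites shown to be bound. The stretches below end at or before the start site, are given 5′ to 3′ along the gene, and have the match in capitals (TTCAAA is TTTGAA on the other strand). They lie at chr19:37376338-37376381 (plus strand, Kif11), chr7:80294421-80294475 (plus, Prc1), chr5:45669870-45669924 (plus, Ncapg) and chr10:69352913-69352952 (minus, Cdk1).
Kif11: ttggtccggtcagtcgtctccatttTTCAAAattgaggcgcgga
Prc1: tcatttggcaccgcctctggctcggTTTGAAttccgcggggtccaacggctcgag
Ncapg: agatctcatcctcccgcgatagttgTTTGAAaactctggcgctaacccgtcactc
Cdk1: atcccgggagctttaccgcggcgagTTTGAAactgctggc

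Interferon response genes were higher in the spleen: of 25 tested, 22 rose, 18 of them at least 2-fold, and Stat2, a subunit of the interferon-activated transcription complex, was lower (-0.56). Ifit3, an antiviral protein, read 5.82 and 5.79 in the thymus and 8.55, 8.58, 9.41 and 8.63 in the spleen (difference 2.98, SE 0.30, adjusted p = 3.05e-06 in limma), and Ifit1 6.33 and 6.11 against 8.60, 7.88, 8.92 and 8.26. Mx1, another antiviral protein, read 4.57 and 4.57 against 6.61 to 7.32. Sample 25 was the highest of the 4 spleen arrays for all 3 genes. Genes of MHC class I presentation rose with them, 9 of 13 at least 2-fold and none lower at the adjusted p. B2m, the constant chain of MHC class I, went from 12.72 and 12.64 to between 13.86 and 13.90, and Psme2, a proteasome activator subunit, from 8.92 and 8.71 to between 10.99 and 11.12.

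The core of the interferon-stimulated response element (GAAA, any 2 bases, GAAA, on either strand) was found in the promoters of 10 of 19 interferon response genes (52.6%), 3 of 11 MHC class I presentation genes (27.3%) and 387 of all tested genes with an entry (3.6%). It can share bases with TTTGAA. The stretches are from genes that rose, and from Stat2, which holds a match and fell; they lie at chr19:34583348-34583407 (plus strand, Ifit3), chr19:34640760-34640819 (plus, Ifit1), chr8:71537568-71537627 (minus, Bst2) and chr10:128270251-128270310 (plus, Stat2) of GRCm38.p6. Capitals mark 1 match in each; the Ifit1 and Bst2 stretches hold another, in lower case or overlapping it.
Ifit3: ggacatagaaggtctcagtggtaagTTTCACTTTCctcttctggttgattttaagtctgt
Ifit1: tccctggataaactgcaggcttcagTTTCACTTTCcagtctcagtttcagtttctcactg
Bst2: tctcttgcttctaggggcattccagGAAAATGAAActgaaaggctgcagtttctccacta
Stat2: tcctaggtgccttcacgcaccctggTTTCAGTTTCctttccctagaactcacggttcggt

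Metabolic and chromatin genes were mixed. Of 15 glycolysis genes 3 were at least 2-fold higher, among them Aldoa (1.51) and Hk1 (1.13), and Ldhb, the lactate dehydrogenase B chain, fell from 11.33 and 11.21 to 7.31, 7.17, 7.54 and 7.84. None of the 18 cholesterol synthesis and uptake genes differed 2-fold. Ezh2, the Polycomb methyltransferase of cycling cells, read 12.12 and 12.21 in the thymus and 9.02 to 9.48 in the spleen (-2.84), while its relative Ezh1 was higher by 0.76.

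The mutant made nearly the same changes as WT animals. Of the 1756 genes that differed at least 2-fold in WT (at the adjusted p alone, 9543 genes or 70.1% of those tested), 1727 (98.3%) were called in ENK KO in the same direction, and 0 had the opposite sign. Of the 1655 mutant genes, 1648 (99.6%) were called in WT in the same direction and 1515 were 2-fold in both. The size of the change was close: the mutant difference was 0.973 of the WT one in the median WT gene (quartiles 0.899 and 1.04), and starting from the mutant genes the WT difference was 0.999 of the mutant one (0.923 and 1.07). Across the genes tested the differences of the genotypes had a Pearson r of 0.98 and a Spearman rho of 0.964. These are descriptions across genes, which are not replicates. Any offset between tissues is shared by both genotypes, and among the 6327 genes near background r was already 0.941.

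**Figure D3:**
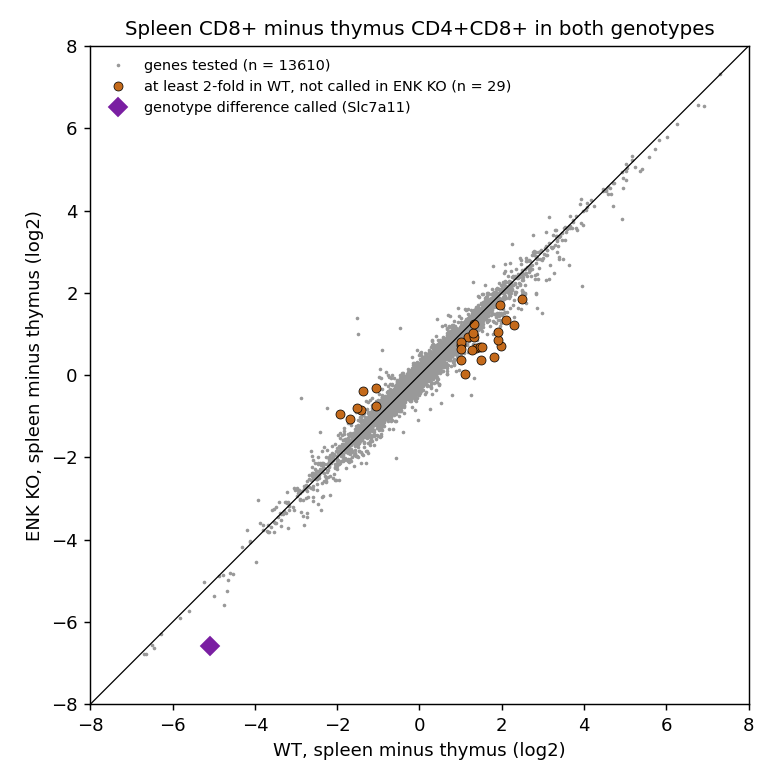
Log2 difference, spleen minus thymus, of each gene tested in WT (horizontal axis) and ENK KO (vertical axis); the line marks equal differences, and the genes 2-fold in WT that were not called in ENK KO and the gene called for the genotype difference are marked. The points follow the line (Pearson r 0.98), and Slc7a11 lies below it at -5.09 in WT and -6.57 in ENK KO.

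A difference between the genotypes in the size of the change was called for 1 gene of 13610 (0.00735%), in limma. Without adjustment, 491 genes had a p under 0.05, and 680 would be expected with no difference anywhere. An offset shared by a tissue cancels in this test. Its 95% interval lay within -1 to 1 for 1539 of the 1756 WT genes (87.6%), so in those a 2-fold deviation of the mutant lies outside the interval. In the others the interval reached past 1 in size. The gene called was Slc7a11. The WT thymus arrays read 10.42, 10.72 and 10.86 and the ENK KO thymus arrays 11.75 and 12.16, without overlap, while the spleen values were similar (WT 5.44 to 5.71, ENK KO 5.25 to 5.53). The fall was thus larger in the mutant by 1.49 on the log2 scale (-1.49, SE 0.18, 95% interval -1.88 to -1.09, adjusted p = 0.0461). The call was made in 10 of 24 other settings, and the difference ranged from -1.79 to -1.18. The call was lost with age as a covariate (adjusted p = 0.116 in limma), while the estimate stayed at -1.49. Both mutant groups hold the same share of animals of 2 months, so this covariate cannot move the estimate and does not test age. The call was also lost with no filter on low values (0.0605) and without any 1 mutant spleen array (0.0816 to 0.196). It was lost too without thymus ENK KO 29, which leaves 1 mutant thymus array, where the difference was -1.28. Without the WT spleen array 22, whose sex label does not match, the adjusted p was 0.157, and 0 genes were called; leaving out each of the other WT spleen arrays (0.0926 to 0.148) or thymus WT 7 (0.177) lost it too.

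The genes next in line by p did not pass with these 13 arrays. Ppbp did when WT spleen 40 was left out (adjusted p = 0.00381 in limma). Without thymus ENK KO 29, the difference between genotypes was -1.41 for Srpk2 and -0.62 for Ankrd50. For Srpk2 it was -1.48 when only ENK KO animals of 2 months were kept. These were set against WT animals of 7 months, so genotype and age cannot be told apart there. Both of these settings leave 1 mutant thymus array. Ppbp, a platelet chemokine, read 5.19 and 5.12 in the mutant thymus and 6.49 to 6.95 in the mutant spleen, against 7.70 to 8.46 in the WT spleen (difference between genotypes -1.48, adjusted p = 0.266 in limma). The 6 platelet markers averaged 6.70 to 6.71 in the mutant thymus and 7.15 to 7.30 in the mutant spleen, and their part in this value was not tested. Srpk2, a splicing kinase, read 11.12 and 10.41 in the mutant thymus against 9.61 to 9.66 in WT (-1.06, adjusted p = 0.266). Cd1d2, a lipid-presenting molecule, fell less in the mutant (0.80, adjusted p = 0.266), and S100a11 rose less (-0.76, adjusted p = 0.766).

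**Figure D4:**
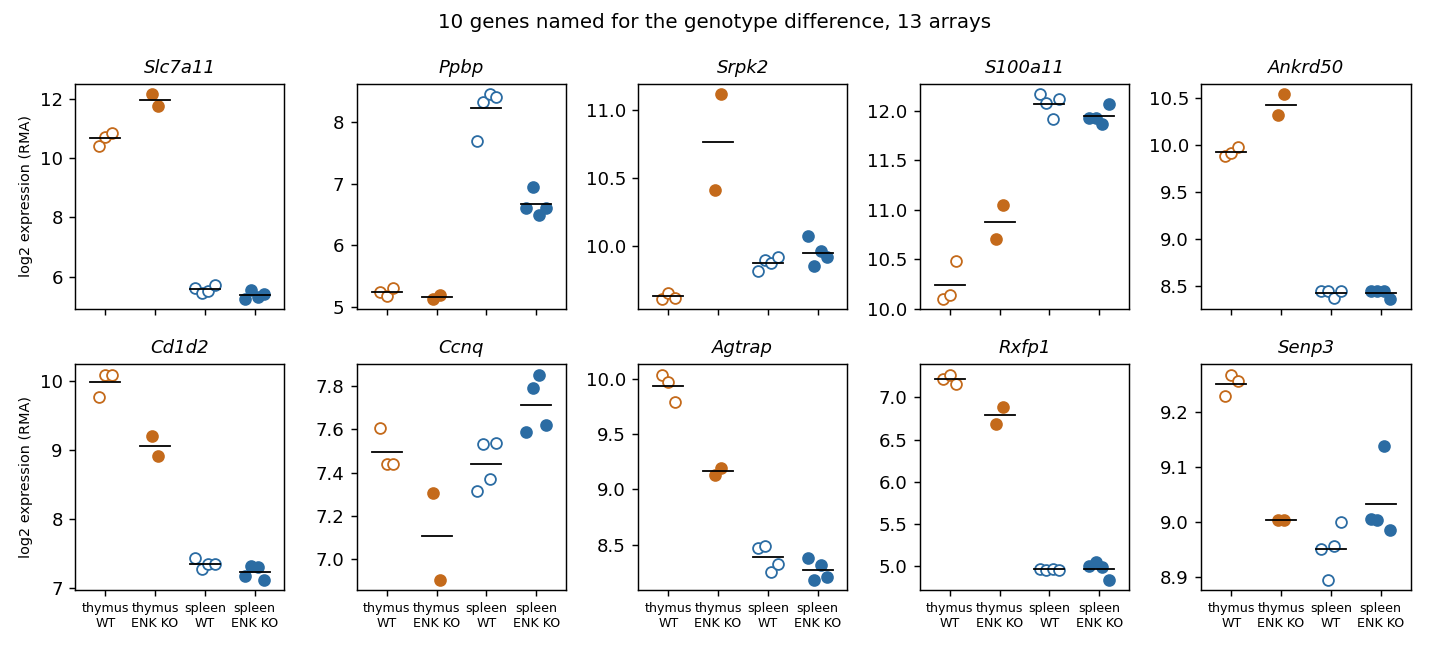
Log2 RMA value per array of the genes named for the difference between genotypes, in WT (open) and ENK KO (filled) thymus and spleen; each point is 1 array and short lines are group means. Slc7a11 is higher in both ENK KO thymus arrays (11.75 and 12.16) than in the 3 WT ones (10.42 to 10.86), and Ppbp is lower in the ENK KO spleen (6.49 to 6.95) than in the WT spleen (7.70 to 8.46).

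Of the WT changes, 29 were not called in the mutant, 22 of them higher and 7 lower in the WT spleen. All 29 had the same sign in the mutant and a smaller size, and in none did the difference between genotypes pass the adjusted p (4 did so unadjusted). Choosing genes that were 2-fold in WT and not called in the mutant itself favours a smaller size in the mutant. The median SE of their mutant difference was 0.447, against 0.0767 over all genes. A large SE is favoured by the same choice. It rests on a spread shared by all 13 arrays, so it can stem from WT arrays as well. Gbp7, for example, had a standard deviation of 1.24 in the WT thymus, 0.37 in the mutant thymus and 0.17 in the mutant spleen. In 14 of the 22 higher genes spleen sample 31 was the highest mutant spleen array, as it was in 37.5% of the mutant's 869 higher genes. H2-Ea, an MHC class II chain, was spread widely within the mutant spleen, with 5.71 and 5.73 in the thymus and 5.97, 8.55, 7.22 and 8.58 in the spleen. H2-Ob, of the same class, read 9.90, 9.45, 9.20 and 6.81 in the spleen, and here sample 31 was lowest.

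Several of these genes answer quickly to T cell receptor signals or to cell handling. Fos, a subunit of the AP-1 transcription factor, read 8.74 and 9.14 in the mutant thymus and 9.04, 9.16, 9.35 and 11.03 in the spleen: 3 spleen samples overlapped the thymus range or lay just above it, and sample 31 stood apart. Its difference was 0.71 (SE 0.46, adjusted p = 0.195 in limma) in the mutant and 1.98 in WT, and the difference between genotypes was -1.28. Dusp1, a phosphatase induced by the same signals, read 11.19 and 11.52 against 10.85, 10.63, 11.12 and 12.92, and its difference was 0.03 in the mutant and 1.10 in WT. Junb, by contrast, was higher in every spleen sample, at 10.71, 10.96, 11.28 and 11.53 against 9.82 and 9.01 (1.70, SE 0.25, adjusted p = 8.62e-05).

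Over the 18 TCR-responsive and immediate early factors tested, 8 were higher in the mutant spleen, 5 of them at least 2-fold, and none was lower. Their median was 0.51 in the mutant and 1.13 in WT, and 6 of the 10 that were 2-fold in WT were called in the mutant. Without sample 31, 8 were higher and 2 lower, the mutant median was 0.34 and the median difference between genotypes -0.72, against -0.30 with it. In females of 2 months alone the median was 0.27, and in males of 7 or 9 months 0.85. No difference between genotypes was called for any of the 18 genes, and the part of age, sex or sample handling was not tested.

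**Figure D5:**
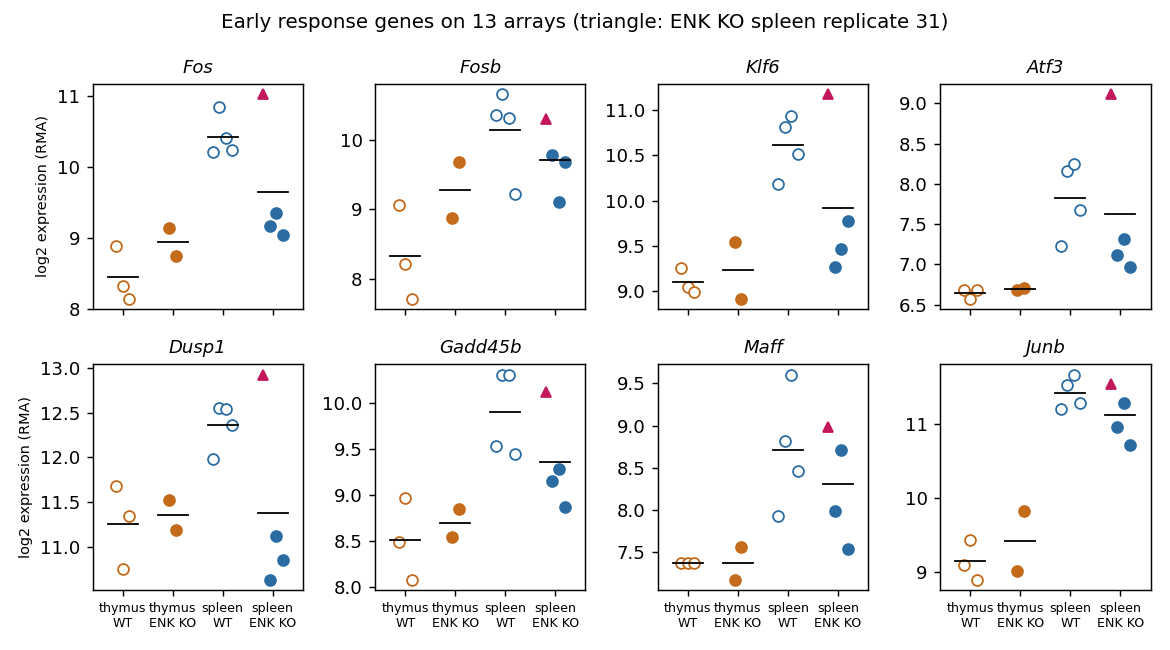
Log2 RMA value per array of early response genes, not all of them on the list above, in WT (open) and ENK KO (filled) thymus and spleen; each point is 1 array, short lines are group means, and spleen ENK KO sample 31 is a triangle. For Fos, Atf3 and Dusp1 sample 31 (11.03, 9.12 and 12.92) stands above the other ENK KO spleen samples.

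Among the other groups, mitosis genes had medians of -1.66 in the mutant and -1.35 in WT. Of the 26, 11 had an unadjusted p under 0.05 in limma for the difference between genotypes, none of them adjusted. Over all genes tested this share was 3.61%. Genes of DNA replication and nucleotide supply had 7 of 28, and a median difference of -0.25. The genes of a list are not replicates, so these counts are descriptions. The median difference of the mitosis genes was -0.37. It was -0.20 with only the ENK KO females of 2 months kept and -0.56 with only the older ENK KO males, against the same WT arrays. Of the 7 mutant genes at least 2-fold that were not called in WT, Gbp8 encodes an interferon-induced GTPase, Ccl19 the ligand of Ccr7 and Alpl alkaline phosphatase, and the remaining 4 were Slc28a2, Slc28a2b, Sec61b and Rnu12. Slc28a2 and Slc28a2b are close copies that can share probes.

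The mutant holds 2 age and sex classes, each of which has 1 thymus and 2 spleen arrays, the lone thymus array being assumed to vary like the other groups. In females of 2 months 1591 genes differed at least 2-fold at the adjusted p, and in males of 7 or 9 months 1710. That the 1655 genes of both classes together had the same sign in each was favoured, though not fixed, by how they were chosen. Rnu12, for example, differed by -2.43 in the females and -0.04 in the males. Between the classes 0 genes differed at the adjusted p in limma, and 479 at an unadjusted p under 0.05. Il7r rose by 6.12 in the females and 6.95 in the males (adjusted p = 0.295 for the difference), and Scn4b, a sodium channel subunit, fell by 2.56 and 1.76.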

How the data were processed

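Per the submitters' processing notes, the authors used RMA to obtain the deposited log2 values of each probe set; the sources used here do not give whether all arrays were normalized together. RMA corrects background, sets arrays to a common distribution and summarises probes. Cells had been sorted by flow cytometry, and total RNA labelled with a whole-transcript kit, per the labels' protocols.

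Of 28213 probe sets, 21640 had 1 gene symbol, 1321 several and 5252 none in the annotation table used; those with 1 were used. Of them 21553 were found by gene ID in a RefSeq table (GRCm38.p6), and 0 symbols changed. For the 954 of 19937 genes with several probe sets, the one with the highest mean was kept. Genes above the 40th percentile (6.76) on at least 2 arrays were tested.

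A mean per group was fitted to 13 arrays of all 4 groups (limma 3.58.1, R 4.3.3, eBayes with trend), because thymus ENK KO has 2 arrays, and contrasts were adjusted by Benjamini-Hochberg. Genes named are the 12 largest differences in each direction without overlap, the up to 4 list members with the smallest p, those called or leading for the genotype difference, and the 10 largest WT changes not called in ENK KO; a few more members of lists are named for their role. Members and lists were chosen with earlier results of these data known. No samples are paired by number. On simulated data, 95% of 2-fold differences were recovered in the ENK KO comparison and 92% in the genotype difference. At 0.5 on the log2 scale these were 87% and 61%. The simulation had the same mean in all groups, independent noise and few changed genes. The adjusted p depends on the share of genes that change, and 100 were changed at each size. The arrays had 65.1% of genes called in the ENK KO comparison and 1 gene for the genotype difference. They also mix ages and sexes. The simulated recovery therefore does not carry over to them, and for the genotype difference recovery may be lower. Ppbp (-1.48) and Srpk2 (-1.06) differed more than 2-fold there and did not pass. The number of arrays limits the precision. Other filters, scalings, array choices and each array left out were tried; the list counts at 2-fold, without sample 31, with all 14 arrays and per age class were added after seeing the data.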

Additional observations from a re-analysis of the deposited data

Results flagged for a closer look

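In groups of 4 samples, a sample was singled out where the share of the range taken by its gap to the nearest other exceeded Dixon's 95% critical value. For values without ties chance does so in about 1 in 20 groups. This met 8 of 43 genes checked in the mutant spleen. The count cannot be read against that rate. Equal values, as for Rag2 and Ankrd50, bring the share to 1, and Fos, Acpp and Trgv1 were named as not called in the mutant, which a wide spread favours. Sample 31 stood apart for Fos, at 11.03 against 9.04 to 9.35 in the others. Sample 25 stood apart for Acpp, a phosphatase, at 9.10 against 10.89 to 11.25, and for the gamma chain segment Trgv1, at 8.96 against 6.81 to 7.04. The remaining flags were small in size: Ms4a4c in sample 3 at 11.05 (others 11.33 to 11.36), Rag2 in sample 6 at 4.22 (others 4.46), Dhrs3 in sample 25 at 6.89 (others 6.99 to 7.00), Senp3 in sample 25 at 9.14 (others 8.99 to 9.01), and Ankrd50 in sample 3 at 8.36 (others 8.45).

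The change of Slc7a11 differed between genotypes, at -1.49 on the log2 scale, by the test of the difference itself. The call was made in 10 of 24 other settings. It was lost with age as a covariate (adjusted p = 0.116 in limma), where the estimate stayed at -1.49, so age was not tested by this. In the spleen array 28, outside the comparison, Cd4 read 12.20 where the other spleen arrays read 6.61 to 6.92.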

How the results depend on the processing

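Counting genes at the adjusted p and at least 2-fold gave 869 higher and 786 lower in ENK KO and 1756 in WT. The number of genes called for the genotype difference was 0 with no filter, 0 with age as a covariate, 0 with ENK KO males of 7 or 9 months only, and 0 to 4 when arrays were left out in turn: 4 without thymus ENK KO 29 and 2 without thymus WT 38. Slc7a11 ranged from -1.79 to -1.18, with adjusted p from 0.0218 to 0.27, and was called in 10 of 24 settings. Every other count of calls stayed within 1.5 times under each setting run, and the share of WT 2-fold genes found in ENK KO between 95.4% and 98.7%. Other scalings moved the ENK KO split from 3792 higher and 5073 lower to 4120 and 4719 (quantile) or 4071 and 4771 (median centring).

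Among genes named, signs turned for genes that were not called in the first place. In ENK KO, these were Nfil3 (-0.17 without spleen 31, and -0.33 to 0.55 over the arrays left out), Senp3 (-0.0088 at 2 months only, -0.0047 to 0.046 over the arrays left out), Epsti1 (-0.23 without thymus 29 to 2.92 without thymus 1) and Trgv1 (-0.10 at 2 months only). In the genotype difference, they were Epsti1 (0.44 at 7 or 9 months only, -2.34 without thymus 29 to 0.82 without thymus 1), H2-Ob (0.017 with all 14 arrays, 0.39 at 2 months only, and -0.78 to 0.44 over the arrays left out) and Trgv1 (0.31 at 7 or 9 months only). In these settings the age limits apply to the ENK KO arrays, and all WT arrays, of 7 months, stay in. The cause of the turned signs was not tested. No paired analysis was possible because no replicate number occurs in more than 1 group. Signal near background limits the folds of the largest differences, and the equal values within each tissue limit what small differences between tissues can show.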

Other observations

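Cd96, an adhesion receptor of T and NK cells, read 7.06 in thymus ENK KO sample 1 and 11.78 in sample 29, against 11.59 to 11.80 in the 4 mutant spleen samples, so its difference of 2.27 did not pass (SE 1.28, adjusted p = 0.137 in limma). Epsti1, an interferon-induced gene, showed the opposite order, at 10.78 in thymus sample 1 and 7.63 in sample 29. Of the 10 genes named for the genotype difference, 5 lie on chromosome 3 (Slc7a11, Ankrd50, Cd1d2, Rxfp1 and S100a11), where 595 of 13602 placed genes (4.37%) lie; this was chosen after the values were seen, and 4 of the 5 did not pass the test.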
